A study of Tachysurus fulvidraco x Tachysurus vachelli with 6 samples.

Results

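The aryl hydrocarbon receptor genes of the gill, and the enzyme genes that this receptor is best known for switching on, were followed in juvenile hybrid yellow catfish after 16 h of transport. The members were chosen by gene name from the deposited expression table: 5 receptor genes (ahr and 4 loci annotated as aryl hydrocarbon receptor-like) and 4 target enzyme genes (a CYP1A1-like locus, a CYP1B1-like locus, ugt1a1 and nqo1), 9 of the 25792 genes in the table. They were picked with their transport and control values already known, so their values are given as a description. Calls among the 9 are given, but nothing is read from them, and no p-value is printed for any member. All 9 passed the filter on low counts.

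The fish were a cross of Tachysurus fulvidraco mothers with P. vachellii fathers, all juvenile and all of the same cross. The tissue was the second gill on the left side. The transport group had 3 libraries from fish under transport for 16 h, and the control group had 3 libraries from untreated fish. Whether each library holds 1 fish or a pool is not in the labels, nor are the stocking density and the water quality. The p-values therefore rest on differences among libraries that may be technical in part.

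The aryl hydrocarbon receptor is a ligand-activated transcription factor of the bHLH-PAS family. In the absence of ligand it is held in the cytosol by a complex that contains the chaperone HSP90. After binding planar aromatic compounds or certain tryptophan derivatives it enters the nucleus, pairs with ARNT and binds response elements near its target genes, above all those of the CYP1 monooxygenases. Fish carry several receptor genes, and CYP1A in the gill is widely used as a marker of exposure to waterborne aromatic hydrocarbons.

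The libraries held between 42962760 and 58495713 estimated counts, and 20771 genes had enough counts to be tested. Levels are given in FPKM, fragment counts corrected for gene length and library depth, so that genes of different length can be compared. On the principal components, control replicate 1 stood apart on the second component (-46.9, against values between -5.77 and 25.8 for the other 5 libraries). It also had the highest summed level of 4 hepatocyte markers, 5.84 FPKM, against 1.01 to 1.06 FPKM in the transport libraries and 0.69 and 0.81 FPKM in the other controls. The gill markers were present: summed levels of 3 epithelial markers were 1100 to 1185 FPKM after transport and 1158 to 1825 FPKM in the controls, and those of 9 ionocyte markers were 1310 to 1457 FPKM after transport and 1254 to 1633 FPKM in the controls, with foxi3 at or near 0. Over the whole table edgeR called 1389 genes, but 3 without transport replicate 2, and without that library none of the 9 members and no gene of the pathway lists was called.

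In these gills the 4 receptor genes other than ahr itself had lower means after transport, and so had the 4 target enzymes. The mean FPKM after transport was 16.4% of the control mean for the CYP1A1-like gene, 16.0% for the CYP1B1-like gene, 12.4% for ugt1a1 and 33.6% for nqo1. The most abundant receptor gene stood at 74.5% of its control mean. Of the 9 members, 7 were called lower and none higher at an adjusted p under 0.05 by edgeR's quasi-likelihood test, where 3.46% of all tested genes were called lower and 3.23% higher. Without transport replicate 2 none of the 9 was called, and without transport replicate 3 the number was 3. The 7 had all 3 transport libraries below all 3 controls, where 15% of tested genes did, 17.6% lay wholly above and 32.7% did not overlap in either direction. Of the 7, 4 were called and at least 4-fold lower, where 0.366% of tested genes were. Since these values chose the members, nothing is read from the counts.

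**Figure D1:**
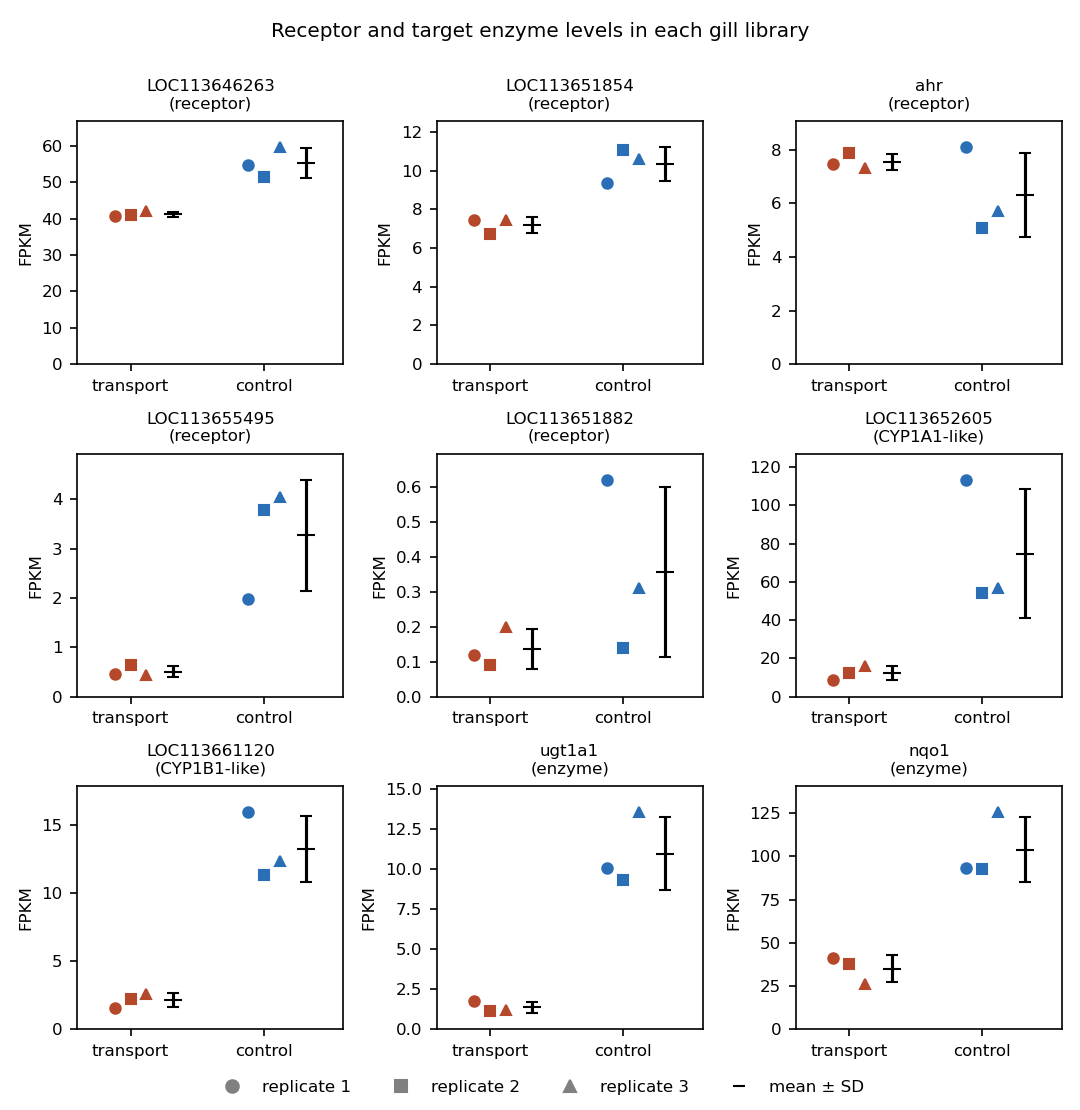
FPKM of each of the 9 members in each library, transport at the left and control at the right of each panel; symbols mark the replicate number, and the black bars are mean ± SD (n = 3). In 7 panels every transport point lies below every control point, while ahr and LOC113651882 overlap.

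Among the receptors, LOC113646263 (NW_020847805.1, 2601769 to 2623833, minus strand) was by far the most abundant. It had 40.7, 40.9 and 42.0 FPKM in the transport libraries, against 54.8, 51.4 and 59.7 FPKM in the controls. The transport values lay within a narrow band below the lowest control, with means of 41.2 ± 0.731 FPKM after transport and 55.3 ± 4.18 FPKM in the controls (SD, n = 3 each). The log2 fold change, transport minus control, was -0.44 (SE 0.09).

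LOC113651854 and LOC113651882 are tandem receptor genes on NW_020847918.1, both on the minus strand and 3155 bp apart (458821 to 465180 and 425551 to 455665). LOC113651854 had 7.44, 6.73 and 7.45 FPKM after transport, against 9.38, 11.1 and 10.6 FPKM in the controls. Its groups did not overlap, and the log2 fold change was -0.54 (SE 0.12). Its neighbour LOC113651882 was barely expressed, with 0.12, 0.09 and 0.20 FPKM after transport, against 0.62, 0.14 and 0.31 FPKM in the controls. These levels rest on 31 to 62 estimated counts per transport library and 56 to 201 per control library, and the groups overlap. Its log2 fold change of -1.40 (SE 0.62) became -0.75 without control replicate 1, the library with the highest value. In every library LOC113651854 exceeded its tandem neighbour at least 15.1-fold in FPKM. How similar the copies are in sequence was not analysed here, so reads that could fit either copy may have been divided between them.

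The gene named ahr (NW_020847794.1, 16230703 to 16255911, minus strand) was the only member with a positive log2 fold change, 0.24 (SE 0.19). It had 7.47, 7.88 and 7.31 FPKM after transport, against 8.10, 5.10 and 5.73 FPKM in the controls. Control replicate 1 lay above all transport libraries and the other controls below them. The log2 fold change was 0.45 without that library and 0.11 without control replicate 2.

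LOC113655495 (NW_020847970.1, 606389 to 627997, minus strand) had the largest relative difference of the receptor genes. It had 0.45, 0.64 and 0.43 FPKM after transport, against 1.98, 3.79 and 4.05 FPKM in the controls. The transport mean was 15.5% of the control mean, a log2 fold change of -2.70 (SE 0.35). Its lowest control was replicate 1, and the log2 fold change was -2.97 without it. The next gene in the table, LOC113655498, starts 62 bp away on the opposite strand, and its log2 fold change was 0.68 and not called. Whether reads were counted by strand is not stated in the labels.

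Summed over the 5 receptor genes, the level was 56.2, 56.2 and 57.4 FPKM after transport, against 74.9, 71.4 and 80.4 FPKM in the controls. LOC113646263 made up 72.4% to 73.2% of that sum after transport and 71.9% to 74.2% in the controls, so its share overlapped between the groups. The share of ahr was 12.7% to 14.0% after transport and 7.13% to 10.8% in the controls. The share of LOC113655495 was 0.749% to 1.14% after transport and 2.64% to 5.31% in the controls. The ratio of LOC113646263 to ahr was 5.45, 5.19 and 5.75 after transport, against 6.77, 10.1 and 10.4 in the controls, with no overlap. In the order of levels, ahr and LOC113651854 overlapped at the second place after transport, while in the controls LOC113651854 stood above ahr in all libraries. In either group LOC113646263 was at the top, LOC113651882 at the bottom and LOC113655495 next above it, without overlap with their neighbours in the order.

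**Figure D2:**
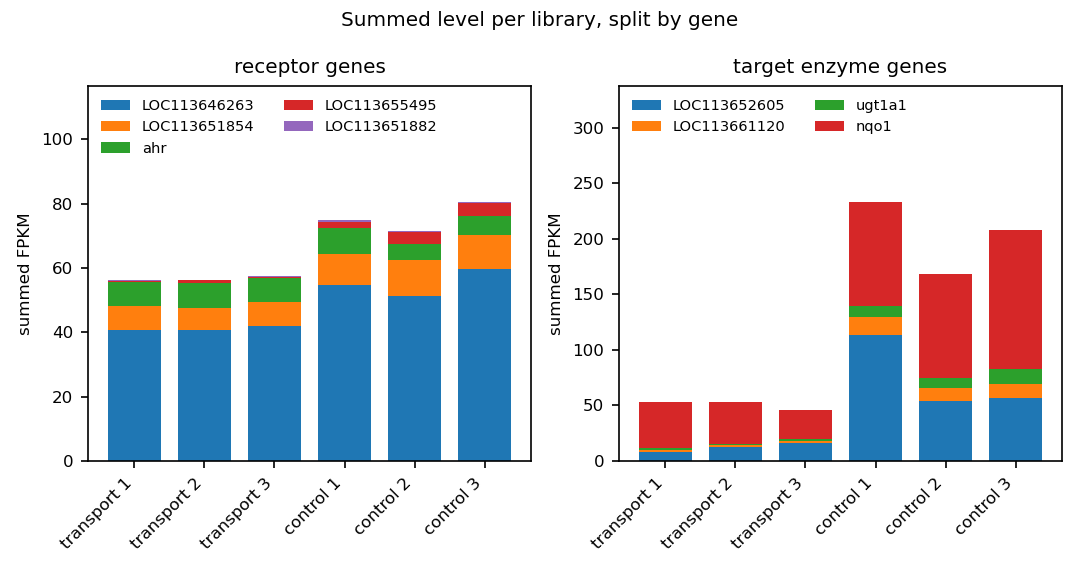
Summed FPKM per library of the 5 receptor genes (left) and the 4 target enzyme genes (right), each bar split by gene, with transport libraries at the left of each panel. The receptor sums lie between 56.2 and 57.4 FPKM after transport and between 71.4 and 80.4 FPKM in the controls; the enzyme sums lie between 45.7 and 53.4 FPKM after transport and between 168 and 233 FPKM in the controls.

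The CYP1A1-like gene LOC113652605 (NW_020847924.1, 11546471 to 11551043, minus strand) encodes the monooxygenase that oxidizes planar aromatic compounds and is the classical receptor target. It had 8.55, 12.4 and 15.9 FPKM after transport, against 113, 54.4 and 56.6 FPKM in the controls. All transport libraries were below all controls, and control replicate 1 had about as much as the other controls together. The means were 12.3 ± 3.68 FPKM after transport and 74.8 ± 33.5 FPKM in the controls. The log2 fold change was -2.62 (SE 0.36), and -2.21 without control replicate 1. That library also held the highest hepatocyte marker sum, given above, and whether this has a part in its CYP1A1-like level was not tested.

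The CYP1B1-like gene LOC113661120 (NW_020848052.1, 2243498 to 2250049, plus strand) encodes a related monooxygenase that acts on aromatic compounds and steroids. It had 1.56, 2.19 and 2.57 FPKM after transport, against 15.9, 11.3 and 12.3 FPKM in the controls. The groups were far apart, and the log2 fold change was -2.66 (SE 0.23). Its level was below that of the CYP1A1-like gene in every library, by a factor of 5.48, 5.66 and 6.19 after transport and 7.11, 4.79 and 4.59 in the controls. The ranges of this ratio overlap between the groups.

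The gene ugt1a1 (NW_020847934.1, 34083 to 41378, minus strand) encodes a glucuronosyltransferase, which attaches glucuronic acid to bilirubin and to oxidized foreign compounds. It had 1.75, 1.16 and 1.18 FPKM after transport, against 10.1, 9.34 and 13.6 FPKM in the controls. By edgeR it had the largest difference of the 9 members, a log2 fold change of -3.03 (SE 0.25), although on the log2(FPKM + 1) scale it was -2.34 and that of the CYP1A1-like gene -2.47. It rested on 158 to 212 estimated counts per transport library and 1374 to 1641 per control library. With 1 library left out the log2 fold change lay between -3.24 and -2.84. All 3 transport libraries were below the lowest control.

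The gene nqo1 (NW_020847812.1, 1548416 to 1555000, plus strand) encodes a quinone reductase that is a target both of the aryl hydrocarbon receptor and of the oxidant-sensing factor NRF2. It had 41.1, 37.7 and 26.1 FPKM after transport, against 93.2, 92.8 and 126 FPKM in the controls. The groups did not overlap, and the log2 fold change was -1.59 (SE 0.21), the smallest in size of the 4 enzymes. As the most abundant of the enzymes, it made up 57.0% to 77.6% of their summed FPKM after transport and 40.1% to 60.4% in the controls. In control replicate 1 alone the CYP1A1-like gene exceeded nqo1, by a factor of 1.22. Below them, the CYP1B1-like gene and ugt1a1 overlapped in either group.

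**Figure D3:**
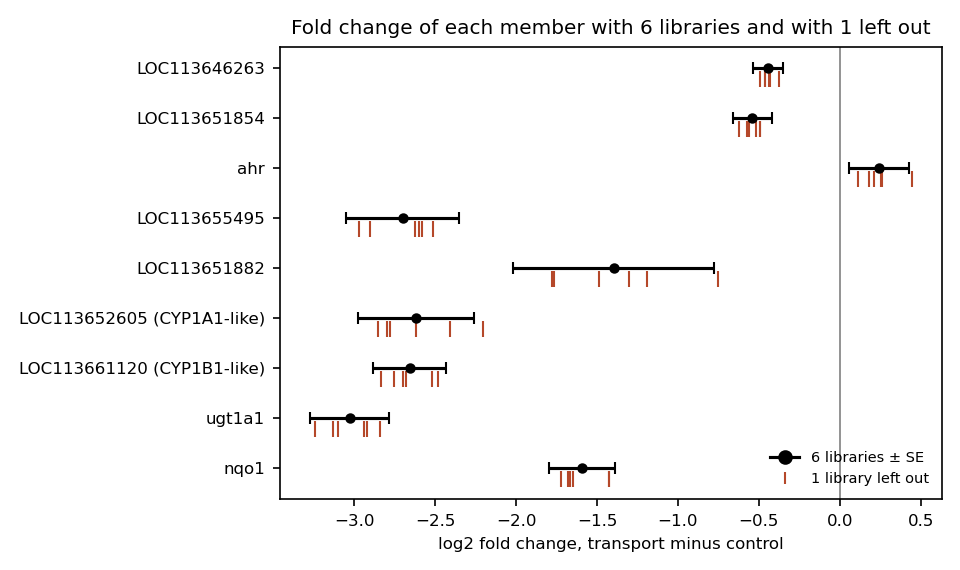
Log2 fold change of each member, transport minus control, with all 6 libraries (black points, bars of 1 SE) and with each library left out in turn (red ticks). All members but ahr lie below 0 in every fit; LOC113651882 spreads the most, and the CYP1A1-like gene is at -2.62 with all libraries and at -2.21 without control replicate 1.

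Spread between replicates differed among the members. The coefficient of variation was 1.77% after transport and 7.56% in the controls for LOC113646263. For the CYP1A1-like gene it was 30.0% after transport and 44.8% in the controls, and for LOC113651882 it was 41.6% after transport and 68.2% in the controls. In the deposited GO terms, all 5 receptor genes and 3 of the 4 enzymes carried a term for the response to or metabolism of xenobiotics. The CYP1A1-like gene had no such GO term but was placed in the KEGG pathway for xenobiotic metabolism by cytochrome P450. All 5 receptors and none of the enzymes carried the term for the nucleus. Of the 9 members, only the tandem pair lay next to another member, and no neighbouring gene overlapped any of them.

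By the root mean square difference of log2(FPKM + 1), centred over the 6 libraries, the gene most like the CYP1A1-like gene among 16089 compared was the CYP1B1-like gene, at 0.27, where the CYP1A1-like gene's own spread was 1.30. Next came LOC113662784 (SP140-like, 0.35) and LOC113638829 (an alpha cardiac actin-like gene, 0.46). For ugt1a1, with a spread of 1.18, the nearest were the fibrillar collagen gene col1a2 (0.15), LOC113655338 (ly-6/neurotoxin-like, 0.17) and LOC113657902 (a type I keratin gene, 0.17). For LOC113646263, with a spread of 0.22, they were LOC113657022 (a tyrosine phosphatase gene, 0.03), LOC113660238 (a heparan sulfate sulfotransferase gene, 0.04) and LOC113635870 (ABI family, 0.04). All 6 libraries entered this measure, so the difference between the groups is the main part of it.

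In the receptor's own complex edgeR called an HSP90 gene higher. Of 11 tested genes, 1 was for a dimer partner, 1 for a feedback repressor, and the rest were listed as chaperones or coactivators. The product name of ccdc47, listed as a coactivator, is coiled-coil domain-containing protein 47 and does not name that role. Of the 11, 1 rose and none fell by edgeR (9.09%, against 6.69% of all tested genes called in either direction). An unadjusted p under 0.05 was reached by 5 (45.5%). DESeq2 called 2 higher and 2 lower (36.4% together), the lower ones being tiparp and the coactivator gene ncoa2. Over the whole table an unadjusted p under 0.05 was reached by 25% of tested genes, and DESeq2 called 12.6% of the 25792 genes. These 25792 include genes too low for the edgeR test, which kept 20771. The DESeq2 share among expressed genes may therefore be higher than 12.6%, here and in the lists below. The list's median log2 fold change was 0.23, where the median of all tested genes was 0.00. The call was an HSP90-alpha gene, LOC113655582, a chaperone that holds the unliganded receptor among many other clients, with 35.1, 38.2 and 43.6 FPKM after transport and 10.9, 15.5 and 8.62 FPKM in the controls. By edgeR its log2 fold change was 1.72 (SE 0.22, adjusted p = 0.0131), and the adjusted p was 0.0923 without transport replicate 2 and 0.0574 without transport replicate 3. The HSP90-beta gene hsp90ab1 was far more abundant, with means of 1132 FPKM after transport and 950 FPKM in the controls. Its groups did not overlap, but edgeR did not call it (adjusted p = 0.0847). Another HSP90-alpha gene, LOC113655583, was low, overlapped between the groups and was not called (edgeR adjusted p = 0.654). Besides LOC113655582, DESeq2 called ptges3 higher, a gene listed with the chaperones. Its means were 104 FPKM after transport and 71.5 FPKM in the controls (log2 fold change 0.53). The groups of ptges3 did not overlap, and edgeR did not call it (adjusted p = 0.0832).

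The gene tiparp, for an ADP-ribosyltransferase that is itself a receptor target and represses the receptor, had 26.0, 23.9 and 20.9 FPKM after transport, against 34.8, 47.9 and 30.4 FPKM in the controls. The groups did not overlap, but with a log2 fold change of -0.69 (SE 0.18) edgeR did not call it (adjusted p = 0.0672), while DESeq2 did (adjusted p = 0.00545). The dimer partner gene arnt2 was low, at 0.577 ± 0.125 FPKM after transport and 0.730 ± 0.249 FPKM in the controls (SD, n = 3 each), and not called (edgeR adjusted p = 0.581). LOC113659051, whose product name is the nuclear translocator-like protein without a number, had 9.57, 8.32 and 8.05 FPKM after transport and 10.3, 8.65 and 14.5 FPKM in the controls, and was not called (edgeR adjusted p = 0.288).

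**Figure D4:**
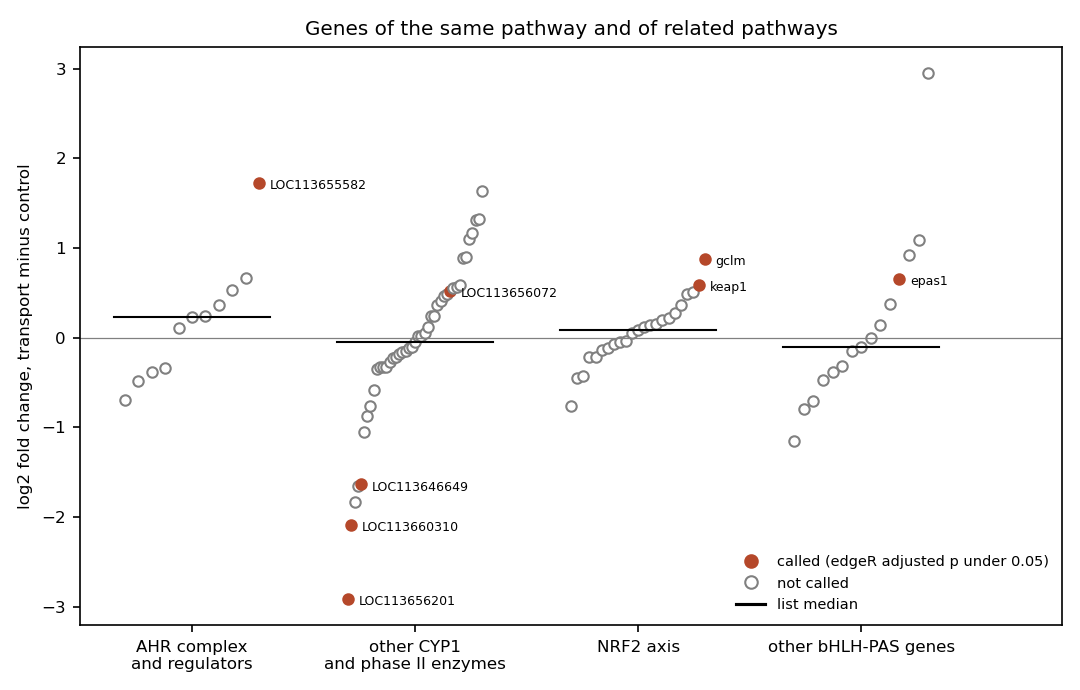
Log2 fold change, transport minus control, of each tested gene in the 4 lists of pathway genes outside the 9 members; filled points passed edgeR at an adjusted p under 0.05, and the black line is the list median. Of the 8 called genes, 3 lie below 0, all of them CYP1 or sulfotransferase genes, and 5 lie above 0.

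Among the other CYP1 and conjugation enzymes, a second gene annotated as CYP1B1 and 2 sulfotransferase genes fell, and a glutathione transferase gene rose. Of 43 tested, 3 fell and 1 rose by edgeR (9.30%, against 6.69% of all tested genes), with a median log2 fold change of -0.05, and 22 of the 43 values were negative. An unadjusted p under 0.05 was reached by 11 (25.6%, against 25% of all tested genes), and DESeq2 called 5 higher and 3 lower of 47 (17%, against 12.6% of all genes). The share with an unadjusted p under 0.05 is near that of the whole table. LOC113660310 (NW_020848037.1, 483871 to 486999), annotated as CYP1B1 by its similarity to another fish, is the only further CYP1 gene that was matched. It had 1.70, 1.21 and 1.14 FPKM after transport, against 5.16, 5.97 and 5.88 FPKM in the controls, with a log2 fold change of -2.08 (SE 0.21; edgeR's adjusted p = 0.00847, and 0.0787 without transport replicate 2). Reads that fit both genes with a CYP1B1 product name could have been divided between them.

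Sulfotransferases attach sulfate to phenols and steroids. LOC113656201, annotated as a cytosolic sulfotransferase 3-like gene, fell to 8.99, 11.6 and 15.1 FPKM after transport, against 71.6, 79.6 and 114 FPKM in the controls. The log2 fold change, -2.91 (SE 0.26; edgeR's adjusted p = 0.00613, and 0.0684 without transport replicate 2), lay between those of nqo1 and ugt1a1. LOC113646649, a sulfotransferase 6B1-like gene, had 7.29, 9.54 and 11.9 FPKM after transport, against 37.7, 34.2 and 16.7 FPKM in the controls (log2 fold change -1.64, edgeR adjusted p = 0.0368). Its call was lost without any single library except control replicate 3, with edgeR adjusted p from 0.0628 to 0.163. The other 15 of the 17 tested sulfotransferase genes were not called by edgeR, which called 6.69% of all tested genes. Over the 17 the median log2 fold change was 0.01, and 5 had an unadjusted p under 0.05, against 25% of all tested genes. DESeq2 called 2 higher and 2 lower of the 18 matched, against 12.6% of all genes called. The higher ones were LOC113650652 (means of 2.75 FPKM after transport and 1.27 FPKM in the controls) and LOC113650653 (2.23 and 0.88 FPKM).

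None of the 10 tested glucuronosyltransferase genes other than ugt1a1 was called by edgeR or DESeq2, and none had an unadjusted p under 0.05. They were low in the gill, with means between 0.00333 and 4.17 FPKM over the 6 libraries for the 13 that were matched. Of the 10 log2 fold changes, 5 were negative and 5 positive. LOC113639660, with the same product name as ugt1a1, had 0.32, 0.08 and 0.46 FPKM after transport, against 0.51, 0.61 and 1.97 FPKM in the controls. Its groups did not overlap, where 15% of tested genes lay wholly below the controls. Its log2 fold change was -1.83 (SE 0.91), on 4 to 21 estimated counts per transport library. Of 13 glutathione transferase genes, which conjugate glutathione to reactive compounds, 1 rose and none fell by edgeR, which called 6.69% of all tested genes. DESeq2 called 3 higher and none lower, against 12.6% of all genes called. An unadjusted p under 0.05 was reached by 5, against 25% of all tested genes. Of these, LOC113655345 and LOC113636307 were lower after transport (log2 fold change -0.33 each). The others were higher and were those that DESeq2 called: the gene called by edgeR, gstp1 and LOC113655226. The most abundant of the 13, gstp1, had means of 615 FPKM after transport and 457 FPKM in the controls (log2 fold change 0.41, edgeR adjusted p = 0.0709). For LOC113655226 the means were 52.8 and 37.35 FPKM (log2 fold change 0.48, edgeR adjusted p = 0.0682). The median log2 fold change of the 13 was -0.12, and 7 values were negative. The risen gene, the Mu-class LOC113656072, had 458, 439 and 427 FPKM after transport and 354, 267 and 289 FPKM in the controls (log2 fold change 0.52, SE 0.12, edgeR adjusted p = 0.0453). It kept its call without control replicate 1 and lost it without any other single library, with edgeR adjusted p from 0.0755 to 0.182.

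NRF2 is the other known activator of nqo1. Of 23 tested genes of its axis, edgeR called 2 higher (keap1 and gclm) and none lower (8.70%, against 6.69% of all tested genes), and DESeq2 called 3 higher and none lower (13%, against 12.6% of all genes). An unadjusted p under 0.05 was reached by 4 (17.4%, against 25% of all tested genes), and the median log2 fold change was 0.08. These shares are near or under those of the whole table. The gene keap1, for the protein that marks NRF2 for destruction, had 23.4, 25.3 and 26.0 FPKM after transport and 17.5, 17.8 and 13.9 FPKM in the controls (log2 fold change 0.59, SE 0.12, edgeR adjusted p = 0.0376). Another gene with the KEAP1 product name, LOC113644088, had means of 33.1 FPKM after transport and 29.4 FPKM in the controls. Its groups overlapped, and it was not called (edgeR adjusted p = 0.669). The gene gclm, for the regulatory subunit of the enzyme that limits glutathione synthesis and a known NRF2 target, had 20.4, 20.4 and 19.8 FPKM after transport and 10.4, 14.0 and 8.23 FPKM in the controls (log2 fold change 0.88, SE 0.19, edgeR adjusted p = 0.0457). Leaving out any single library ended the call of keap1 (edgeR adjusted p from 0.0510 to 0.169), and any but control replicate 2 that of gclm (0.0887 to 0.176). The NRF2 gene itself, nfe2l2, had 126, 123 and 123 FPKM after transport and 131, 161 and 136 FPKM in the controls, and was not called (edgeR adjusted p = 0.248).

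Of 15 tested genes for other bHLH-PAS factors, which share the receptor's domain structure and in part its dimer partners, 1 rose and none fell by edgeR (6.67%, against 6.69% of all tested genes), and the median log2 fold change was -0.11. An unadjusted p under 0.05 was reached by 6 (40%, against 25% of all tested genes), and DESeq2 called 2 higher and 2 lower of 16 (25%, against 12.6% of all genes). The risen gene was epas1, a hypoxia-inducible factor, with 110, 100.4 and 106 FPKM after transport and 67.5, 57.7 and 72.4 FPKM in the controls (log2 fold change 0.66, SE 0.11, edgeR adjusted p = 0.0220). Its call was lost without transport replicate 1, 2 or 3 (edgeR adjusted p = 0.0649, 0.12 and 0.0907). A gene annotated as epas1-like, LOC113643670, had means of 77.9 FPKM after transport and 83.0 FPKM in the controls. Its groups overlapped, and it was not called (log2 fold change -0.11, edgeR adjusted p = 0.640). Besides epas1, DESeq2 called LOC113662105 higher, a hypoxia-inducible factor 1-alpha-like gene (means of 4.73 FPKM after transport and 2.47 FPKM in the controls). The lower ones were LOC113635643, annotated as nuclear translocator-like protein 1 (8.46 and 11.56 FPKM), and LOC113652737, annotated as nuclear translocator-like protein 2 (0.60 and 1.32 FPKM). By edgeR the adjusted p of these genes was 0.119, 0.0691 and 0.0527.

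Markers of other cell types also differed between the groups. By edgeR all 3 B-cell markers matched (cd79a, pax5 and pou2af1) were called lower, where 3.46% of all tested genes were, with summed levels of 9.23 to 10.9 FPKM after transport and 19.0 to 24.3 FPKM in the controls. The goblet cell markers agr2 and foxa3 summed to 70.8 to 105 FPKM after transport and 221 to 415 FPKM in the controls, with agr2 called lower. Most of that sum was agr2. The means of foxa3 were 4.95 FPKM after transport and 6.03 FPKM in the controls, without overlap, and it was not called (edgeR adjusted p = 0.171). Of the 3 epithelial markers tp63 was called lower, of 8 tested ionocyte markers atp1b1 higher and rhbg lower (rhbg was not called by limma), and of 4 macrophage and neutrophil markers lyz higher, while none of the 4 endothelial and 2 T-cell markers was called. The macrophage marker csf1r ran the other way to lyz, with 8.03, 7.31 and 6.33 FPKM after transport and 9.20, 14.6 and 16.4 FPKM in the controls, and was called lower by DESeq2 but not by edgeR (adjusted p = 0.0590). In whole gill, fewer cells of a type and less RNA per cell cannot be told apart, and the part of these markers in the values of the receptor and enzyme genes was not tested. The 4 hepatocyte markers that were matched (fgb, fga, ttr and serpina1) summed to 0.69 to 1.06 FPKM in 5 of the 6 libraries. Other liver genes were not matched.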

How the data were processed

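RNA was sequenced from 6 gill libraries, isolated with TRIzol and prepared with Illumina's standard method per the labels' protocols. The authors deposited 1 table with an estimated count and an FPKM value per gene and library, per the file headers. HISAT and StringTie are named without a version in the submitters' processing notes, and positions are as the table lists them (genome build not given in the sources used here). Counts were deposited as integers, with 4 and 8 over-represented (427 genes at 4 in control replicate 1, against 113 at 3 and 81 at 5), so 1 fragment may be worth about 4 units and counting error is larger than the totals imply. No rounding was needed.

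Genes were filtered with filterByExpr (minimum count 10, minimum total 15), scaled by TMM and tested with edgeR 4.0.16 (R 4.3.3), using the quasi-likelihood F test (two-sided, no covariates) with Benjamini-Hochberg adjustment over 20771 genes and a threshold of 0.05. Each standard error is the absolute log2 fold change over the root of F. Alternatives were DESeq2 1.42.0, limma 3.58.1 on log2(FPKM + 1) and log2(FPKM + 0.1), other filters and scaling, a replicate block, leaving out each library, and counts divided by 4, the last chosen after seeing the data.

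The members and lists were chosen with earlier results of these data known. Lists were matched by symbol, or by product name for loci without one, ignoring case, which added LOC113660310; LOC113659051 was matched to the bHLH-PAS list by its product name. Named were all members, up to 6 called genes per list by FPKM, the genes arnt2, tiparp, nfe2l2 and keap1, and every CYP1 gene (arnt and ahrr, also in the rule, were not analysed here, and another gene of the rule is not reported here); the genes most like 3 members were those with the smallest difference among genes of at least 1 FPKM on average. LOC113659051, ncoa2, hsp90ab1, LOC113655583, LOC113644088, LOC113643670, LOC113650652, LOC113650653, LOC113655345, LOC113636307 and the marker genes were named after their values were seen. So were LOC113639660, gstp1, LOC113655226, ptges3, ccdc47, LOC113662105, LOC113635643 and LOC113652737. Of the marker lists, skeletal muscle was matched by actn3 alone. It had 3.62, 19.95 and 35.1 FPKM after transport and 32.54, 7.05 and 7.34 FPKM in the controls (replicates 1, 2 and 3 in order). It thus varied widely within both groups, and its part in the values of the members was not tested. Protein and promoter sequences were not analysed here.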

Additional observations from a re-analysis of the deposited data

How the results depend on the processing

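The number of genes called over the whole table was 1389, and 3237 with DESeq2. Leaving out 1 library gave 3 to 1498 (for transport replicates 1, 2 and 3 left out: 399, 3 and 162 genes, and for control replicate 3: 379). Same-numbered libraries did not deviate together (correlations of -0.07, -0.03 and -0.04 across genes), so no pairing by number was seen. With so few libraries this cannot exclude a pairing. With the replicate number as a block, 14 genes were called over the table and none of the 9 members. In that edgeR fit 7 members had an unadjusted p under 0.05, as had 4250 of the 20771 genes over the table. Since the members were chosen on this contrast, nothing is read from that count. None was called in the lists of the receptor complex, the NRF2 axis and the other bHLH-PAS genes. Among the CYP1 and conjugation enzymes 1 was called, LOC113656201. With 1 library left out, between 0 and 7 members were called, 0 to 1 genes of the receptor complex, 0 to 3 of the CYP1 and conjugation enzymes, 0 to 1 of the NRF2 axis and 0 to 3 of the other bHLH-PAS genes. DESeq2 called 4 genes of the receptor complex, 8 CYP1 and conjugation enzymes and 4 other bHLH-PAS genes; limma on log2(FPKM + 1) and counts divided by 4 each called 2 of the last. The cause of these shifts was not tested. Each run with a library left out also has fewer samples, and the 1498 calls were those without control replicate 1. Of the 9 members, limma called 6 on log2(FPKM + 1) and 6 on log2(FPKM + 0.1), not calling LOC113651854 in either. Over the whole table limma called 1455 and 1469 genes. With no filter on low counts edgeR called 6 members and 1291 genes in all, and DESeq2 called 7 members. All 9 members kept the sign of their log2 fold change in every alternative run. On the log2(FPKM + 1) scale, which understates changes of low genes, it was -1.47 for LOC113655495, -0.24 for LOC113651882, -2.19 for the CYP1B1-like gene LOC113661120 and -2.34 for ugt1a1, where the CYP1A1-like gene was at -2.47. LOC113651882 did not pass the filter of at least 1 FPKM in at least 3 libraries.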
